A study of Homo sapiens with 4 samples.

Results

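The genes described here are 10 targets of NRF2 that keep the redox state and the glutathione pool of the cell: NQO1, GCLC, GCLM, TXNRD1, HMOX1, SLC7A11, GSR, ME1, FTL and OSGIN1. They were taken by symbol, and every probe set that the array annotation gives to 1 of these symbols alone was taken, which yielded 23 probe sets. All 10 genes were among the 12190 genes tested, out of 19775 named genes. Each gene was read by its brightest probe set, and its other probe sets are given beside it.

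Affymetrix arrays were hybridised with RNA from MIA PaCa-2, a human cell line established from a pancreatic carcinoma. In the ING3 group they carried a lentiviral FLAG-ING3 construct made from full-length ING3 in a vector with the CMV/TO promoter. In the control group they carried a GFP lentivirus, so both groups were transduced and selected. Each group had 2 arrays, a and b, which the submitters describe as technical duplicates. The labels name neither separate cultures nor separate transductions, so every p-value and interval below measures the spread between duplicate arrays of 1 cell population per group.

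ING3, an adaptor subunit of a histone acetyltransferase complex, read 338 and 373 in the control duplicates and 521 and 541 in the ING3 duplicates with its brightest probe set. The log2 difference of 0.58 (SE 0.13) missed the threshold (limma adjusted p = 0.071). ING3 has 4 probe sets, and with those past the filter averaged the log2 difference was 0.14 (adjusted p = 0.67), so the size of this check depended on how its probe sets were used. Keratin genes KRT8, KRT18 and KRT19 were clearly above the filter, VIM lay between 24294 and 27676, and the epithelial markers EPCAM and CDH1 were under the filter on dim genes, with signals of at most 37.9 and 19.7. The 6 epithelial markers summed to 40035 and 40165 in the control duplicates and to 45170 and 48251 in the ING3 duplicates. KRT8 and KRT19 were higher in the ING3 cells (limma adjusted p = 0.033 and 0.0078), and KRT18 was not called (log2 difference 0.13). KRT7 (log2 difference -0.16), EPCAM and CDH1 had lower ING3 means, with overlapping arrays. CDH2, a mesenchymal marker under the filter, read 11.5 and 7.68 in the control duplicates and 35.6 and 32.1 in the ING3 duplicates. The part of these markers in the results below was not tested. Of the markers of other cell types, those tested were 4 of 5 fibroblast, 1 of 4 leukocyte, 2 of 3 endothelial and 0 of 3 acinar markers. None of those tested was called by limma, and COL1A1 alone had an unadjusted p under 0.05. Of the 4 tested fibroblast markers 1 had a higher and 3 a lower ING3 mean. The fibroblast list summed to between 2281 and 2404 on the 4 arrays. LUM of that list, under the filter, read 7.30 and 5.10 in the control duplicates and 48.6 and 28.5 in the ING3 duplicates. PTPRC, which marks leukocytes, lay between 9.38 and 15.97. CD3E of the same list, close to the filter, read 129 and 38.8 in the control duplicates and 87.1 and 42.5 in the ING3 duplicates. Some markers of the other lists were well above the filter. COL3A1 of the fibroblast list lay between 1289 and 1414, and CDH5 of the endothelium list between 257 and 328. The ACTB control probe sets gave a 3' to 5' ratio of 2.58 and 1.80 for the control duplicates and 2.05 and 2.03 for the ING3 duplicates, which lay between them.

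NRF2, encoded by NFE2L2, is a transcription factor that the adaptor KEAP1 holds at a low level by directing it to degradation. Oxidants and electrophiles modify KEAP1, and NRF2 then accumulates, pairs with a small MAF protein and binds antioxidant response elements in the control regions of its targets. Those targets make glutathione, recycle glutathione and thioredoxin, supply NADPH, and degrade heme and store the iron.

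The RefSeq promoter table (build GRCh38.p14) held windows for 7 of the 10 genes, 8 windows in all because TXNRD1 has 2 start sites there. HMOX1, SLC7A11 and GSR had no entry. Each window runs from 250 bases before the start to 50 bases after it. The core of the antioxidant response element, TGACNNNGC, was searched on both strands. It was found in GCLM, in both TXNRD1 windows and in ME1, and not in those of NQO1, GCLC, FTL and OSGIN1. Sequence outside the windows was not searched, so an element farther from the start would be missed. Of all 35116 windows in the table, 13.35% hold the core. The stretches before the start are shown so that a reader can see the letters next to the values of these genes below. Capitals mark the core, read 5' to 3' on the strand of the gene, where the reverse complement appears if the core lies on the other strand.
GCLM, chr1:93909431-93909504, minus strand: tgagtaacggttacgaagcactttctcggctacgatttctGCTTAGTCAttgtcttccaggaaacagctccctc
TXNRD1, first start, chr12:104215640-104215728, plus strand: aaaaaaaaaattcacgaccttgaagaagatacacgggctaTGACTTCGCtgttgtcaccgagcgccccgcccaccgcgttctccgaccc
TXNRD1, second start, chr12:104286890-104286978, plus strand: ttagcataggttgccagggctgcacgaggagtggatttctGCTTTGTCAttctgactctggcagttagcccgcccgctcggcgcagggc
ME1, chr6:83431140-83431228, minus strand: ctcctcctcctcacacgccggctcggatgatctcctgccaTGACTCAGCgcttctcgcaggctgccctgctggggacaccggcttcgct

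In the ME1 stretch the core overlaps a match to TGANTCA, the site of the AP-1 factors, which was also searched on both strands and occurs in 7.71% of all windows. Among the other windows of these genes only that of OSGIN1 held an AP-1 match. The first TXNRD1 window and that of ME1 each held 1 more core that reaches into the transcript and is not shown. These are matches of letters, and binding was not measured in this study.

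The comparison asked how transcripts of these genes differ when ING3 is overexpressed. HMOX1 rose 1.59-fold, and no other gene of the 10 passed in either direction. TXNRD1, GCLM, GCLC and NQO1 were higher on both ING3 arrays than on both control arrays by 1.12-fold to 1.23-fold without passing. SLC7A11, GSR, ME1 and FTL had lower means in the ING3 cells by 1.05-fold to 1.10-fold, with overlapping arrays. Thus 1 of 10 genes was called higher, where 1.03% of all tested genes were, and 0 of 10 lower, where 0.476% were. At an unadjusted limma p under 0.05 there were 4 of the 10 genes, all higher in the ING3 cells, against 17.7% of all tested genes in either direction. With cyclic loess normalization there were 5 of the 10, and these were not all higher. FTL, lower in the ING3 cells, then had a log2 difference of -0.18 (SE 0.047, limma adjusted p = 0.11). That of NQO1 fell to 0.084 (SE 0.047, limma adjusted p = 0.40).

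HMOX1, the inducible heme oxygenase that breaks heme down to biliverdin, iron and carbon monoxide, had a signal of 448 on control array a and 457 on control array b. On the ING3 arrays it was 667 and 773. Both ING3 arrays lay above both control arrays, and the ING3 duplicates were farther apart (0.21 on the log2 scale) than the control duplicates (0.028). The mean was 452 ± 6.22 in control cells and 720 ± 75.4 in ING3 cells (SD between the 2 technical duplicate arrays of each group, not between independent samples). The log2 difference was 0.67 (SE 0.12, 95% interval 0.39 to 0.94, limma adjusted p = 0.035). A single probe set reads this gene, so no other probe set can be set beside it. The call was lost without control array a (adjusted p = 0.24), without control array b (0.23) and without ING3 array b (0.12), and was kept without ING3 array a (0.032), while the log2 difference stayed between 0.56 and 0.77. In RNA from whole cultures, more cells that express a gene and more RNA per cell cannot be told apart. When all 27305 probe sets past the filter were tested in place of genes, the adjusted p of HMOX1 was 0.074.

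**Figure D1:**
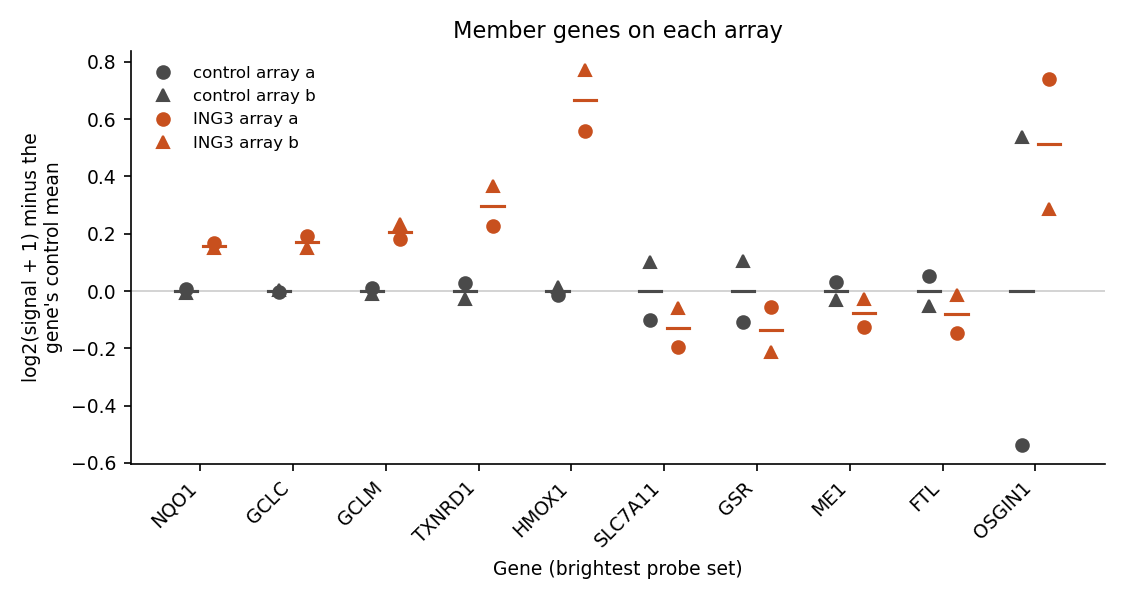
Signal of the 10 genes on each of the 4 arrays, as log2(signal + 1) minus the control mean of the same gene; circles are array a, triangles array b, and bars are group means of 2 arrays. HMOX1 is 0.67 above its control mean, NQO1, GCLC, GCLM and TXNRD1 lie above both their control arrays, and the control arrays of OSGIN1 are 1.08 apart.

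GCLC and GCLM encode the catalytic and the modifier subunit of glutamate-cysteine ligase, the enzyme that limits the rate of glutathione synthesis. The brightest GCLC probe set read 1278 and 1281 in control cells and 1463 and 1419 in ING3 cells. The groups did not overlap, and the log2 difference was 0.17 (SE 0.080, 95% interval -0.0073 to 0.35, adjusted p = 0.30). The brightest GCLM probe set read 11511 and 11357 in control cells and 12963 and 13444 in ING3 cells. That is a log2 difference of 0.21 (SE 0.054, 95% interval 0.086 to 0.33, adjusted p = 0.093), with separate groups. On the brightest probe set of both subunits the ING3 arrays thus lay above the control arrays by a small margin that missed the threshold. The dimmest GCLM probe set went the other way (log2 difference -0.23, SE 0.15).

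SLC7A11 is the transport subunit of system xc-, which brings in cystine, the source of cysteine for glutathione. It read 2279 and 2617 in control cells and 2131 and 2344 in ING3 cells. ING3 array b lay between the control arrays, and the log2 difference was -0.13 (SE 0.087, 95% interval -0.32 to 0.069, adjusted p = 0.49). GSR, glutathione reductase, returns oxidised glutathione to the reduced form with NADPH. Its brightest probe set read 1300 and 1507 in control cells and 1345 and 1207 in ING3 cells, overlapping groups with a log2 difference of -0.14 (SE 0.10, 95% interval -0.36 to 0.090, adjusted p = 0.52).

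TXNRD1, the cytosolic thioredoxin reductase, is a selenoprotein that passes electrons from NADPH to thioredoxin. Its signal was 15869 and 15242 in control cells and 18201 and 20046 in ING3 cells. The groups were apart, with a log2 difference of 0.30 (SE 0.062, 95% interval 0.16 to 0.44), and the adjusted p of 0.053 lay just over the threshold. Without ING3 array a the log2 difference was 0.37 and the gene was called (adjusted p = 0.013). It was not called without control array a (adjusted p = 0.32), without control array b (0.37) or without ING3 array b (0.085), where the log2 difference was 0.23. NQO1, the quinone reductase that is widely used as a readout of NRF2, had a signal of 13491 and 13337 in control cells and 15062 and 14882 in ING3 cells. Duplicates of NQO1 differed by 0.017 on the log2 scale in each group, and the groups by 0.16 (SE 0.052, 95% interval 0.041 to 0.28, adjusted p = 0.16).

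ME1, the cytosolic malic enzyme, makes NADPH from malate. It read 2670 and 2552 in control cells and 2393 and 2562 in ING3 cells, with a log2 difference of -0.076 (SE 0.071, 95% interval -0.24 to 0.084, adjusted p = 0.63). FTL is the light chain of ferritin, which stores iron such as that set free by heme oxygenase. It read 36111 and 33617 in control cells and 31482 and 34492 in ING3 cells, with a log2 difference of -0.080 (SE 0.063, 95% interval -0.22 to 0.061, adjusted p = 0.55). In both genes ING3 array b lay between the control arrays. FTL is read by _x_at probe sets, a type that can bind related transcripts, so a share of its signal may belong to related sequences.

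OSGIN1, an oxidative stress induced growth inhibitor, was read close to the filter and had the widest interval of the 10. It read 59.2 and 126 in control cells and 145 and 106 in ING3 cells. The control duplicates were 1.08 apart on the log2 scale, more than the difference of 0.51 between the groups (SE 0.39, 95% interval -0.37 to 1.40, adjusted p = 0.54). Without control array a the log2 difference was -0.025, so its higher mean rests on that array. For 8 of the 9 genes not called, the 95% interval of the brightest probe set lay inside a 1.5-fold change either way. That of OSGIN1 did not. Dimmer probe sets of GSR (95% interval 0.050 to 0.68) and SLC7A11 (-0.29 to 1.42) reached past that fold, a log2 value of 0.58. These intervals measure the spread between duplicate arrays.

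Across the 10 genes the ING3 mean was the higher for 6 and the lower for 4. Their median log2 difference was 0.17, where that of all tested genes was -0.0074 and 48.3% of those genes had a higher ING3 mean. Without control array a the median of the 10 was 0.071, with 5 higher and 5 lower means. With quantile normalization the median of the 10 was 0.12 and that of all tested genes 0.013. With cyclic loess normalization the 2 medians were 0.11 and 0.014. The arrays of the groups did not overlap for 5 of 10 genes, all 5 with ING3 above. Among all tested genes this held for 24.3% with ING3 above and for 24.9% with ING3 below, the latter against 0 of the 10 genes.

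The other probe sets did not always go with the brightest, although none of them was called. Of the 23 probe sets 20 passed the filter, 10 of them the brightest of their gene, and 3 were too dim (1 each of GCLC, TXNRD1 and ME1). Among the other 10, the ING3 mean was the higher for 8 and the lower for 2, and 0 were called higher or lower in a fit over probe sets that called 0.267% of all probe sets higher and 0.103% lower; 3 had an unadjusted limma p under 0.05. Of 7 genes with over 1 probe set past the filter, NQO1 and GCLC had all of theirs higher in the ING3 cells, and the other 5 had probe sets of both signs.

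The dimmest NQO1 probe set had the larger difference of that gene, from 4127 and 4735 to 5462 and 5532 (log2 difference 0.31, SE 0.077, adjusted p = 0.13). The middle one, 14168 and 13750 against 13407 and 14892, overlapped between groups (log2 difference 0.018, SE 0.065). The second GCLC probe set went from 944 and 863 to 1095 and 1079, a log2 difference of 0.27 (SE 0.095, adjusted p = 0.24). For NQO1 and GCLC the size of the difference thus depended on the probe set.

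For GCLM the second probe set read 7338 and 7331 against 7444 and 8912 (log2 difference 0.15, SE 0.084), and the dimmest went the other way, from 3698 and 2845 to 3156 and 2412 (log2 difference -0.23, SE 0.15). GSR split as well. Its dimmer probe set read 391 and 470 in control cells and 556 and 546 in ING3 cells, with separate groups and a log2 difference of 0.36 (SE 0.14, adjusted p = 0.27), against -0.14 for the brighter. With the probe sets of a gene averaged, the log2 difference of GSR was 0.11, that of SLC7A11 0.096 and that of GCLM 0.042, and none was called. Which part of the transcript each probe set reads is not given in the sources used here.

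The SLC7A11 probe set next in brightness read 1259 and 1593 in control cells and 1311 and 1249 in ING3 cells, and its log2 difference of -0.15 (SE 0.12) goes with the brightest. Its dimmest, close to the filter, read 66.7 and 62.3 against 129 and 71.2. The ING3 duplicates of this probe set were 0.84 apart on the log2 scale, more than its group difference of 0.56 (SE 0.37). The second probe sets of ME1 and FTL had log2 differences of 0.063 (SE 0.077) and 0.0015 (SE 0.059).

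**Figure D2:**
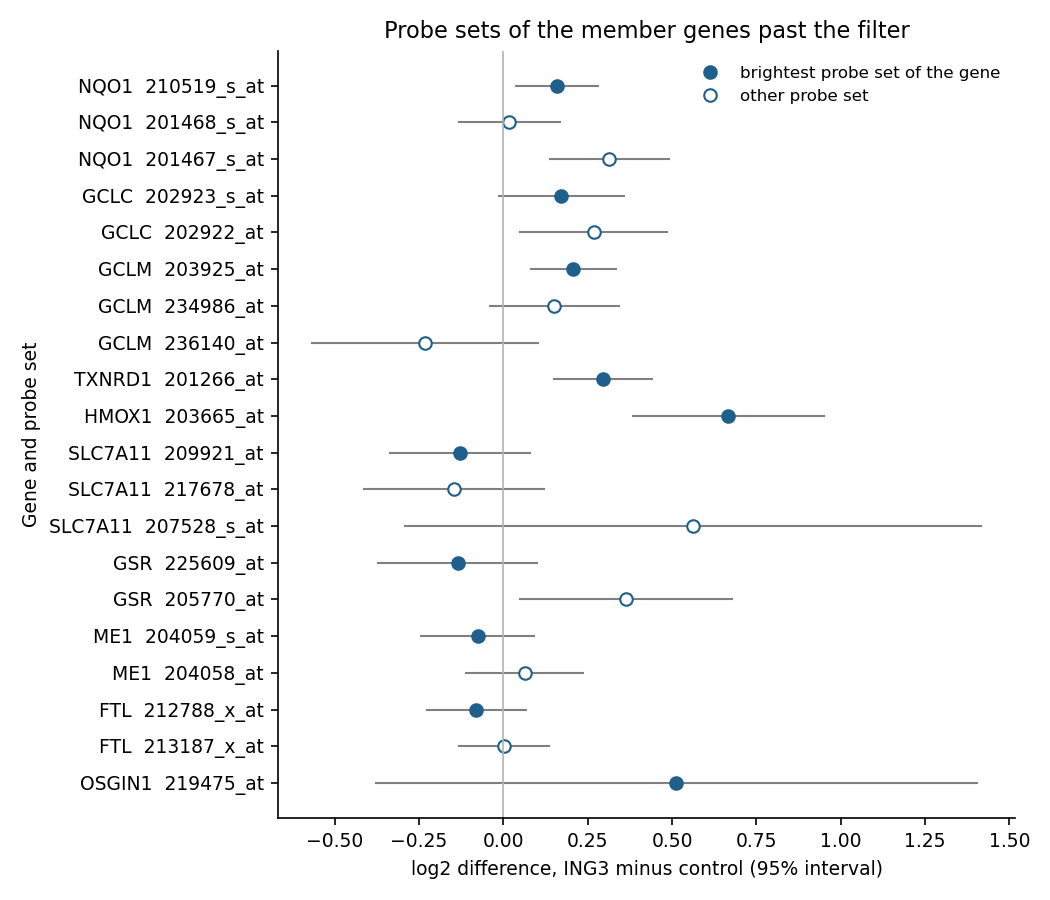
The log2 difference (ING3 minus control) and its 95% interval for the 20 probe sets past the filter, from the fit over 27305 probe sets; filled points are the brightest probe set of a gene. GCLM, SLC7A11, GSR, ME1 and FTL each have probe sets on both sides of 0, and HMOX1 has 1 probe set at 0.67.

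The genes that control NRF2 gave 1 call. Of 11 tested regulators MAFF rose and 0 fell, and the median log2 difference was 0.058. MAFF is a small MAF protein, the type of partner that NRF2 needs to bind DNA. Its signal went from 4637 and 4826 to 6228 and 6295 (log2 difference 0.40, SE 0.059, adjusted p = 0.017). The call for MAFF was lost without control array a (adjusted p = 0.24) and without control array b (0.19). NFE2L2 itself read 6223 and 6230 in control cells and 6610 and 6858 in ING3 cells. Its log2 difference was 0.11 (SE 0.057, limma adjusted p = 0.34). NFE2L1 read 4316 and 3902 in control cells and 3624 and 3641 in ING3 cells. It had a log2 difference of -0.18 (SE 0.069, limma adjusted p = 0.23). KEAP1 differed by 0.012 (SE 0.083), and BACH1, a repressor that competes for the same elements and is known to hold HMOX1 down, by 0.058 (SE 0.070); neither passed. These are transcript levels, whereas NRF2 is known to be controlled mainly through the stability of the protein.

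In the thioredoxin system, 0 of 10 genes were called. At an unadjusted limma p under 0.05 there were 3, beside 17.7% of all tested genes. The ING3 mean was the higher for 8, and the list's median log2 difference was 0.077. TXN, the thioredoxin that TXNRD1 reduces, read 15688 and 14722 in control cells and 18069 and 17997 in ING3 cells. Its groups were apart and the log2 difference of 0.25 (SE 0.056) missed the threshold (adjusted p = 0.068). PRDX1, a peroxiredoxin that removes peroxide with electrons from thioredoxin, differed by 0.093 (SE 0.060, adjusted p = 0.46). SRXN1, which repairs overoxidised peroxiredoxins and is a known NRF2 target, differed by 0.20 (SE 0.073, limma adjusted p = 0.21). TXNIP of the same list read 14457 and 15064 in control cells and 16839 and 18275 in ING3 cells. Its log2 difference was 0.25 (SE 0.060, limma adjusted p = 0.078).

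Among 16 other tested genes of glutathione synthesis and use 0 were called. At an unadjusted limma p under 0.05 there were 6, beside 17.7% of all tested genes. Means were higher for 7 and lower for 9, with a median log2 difference of -0.022. GSS, which adds the last amino acid to glutathione, read 4028 and 4143 in control cells and 4762 and 4915 in ING3 cells (log2 difference 0.24, SE 0.060, adjusted p = 0.084). GPX4, the peroxidase that removes lipid peroxides with glutathione, differed by -0.027 (SE 0.053). MGST1, a microsomal glutathione transferase, had a log2 difference of -0.19 (SE 0.058, adjusted p = 0.13) on its brightest probe set, which is of the _x_at kind. With the mean of its probe sets the MGST1 difference was -0.41 and was called (adjusted p = 0.027), and without _x_at and _s_at probe sets it was -1.0 (0.037), so its size depended on the probe set.

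Of 8 tested enzymes that make NADPH or belong to the pentose phosphate pathway 0 were called. At an unadjusted limma p under 0.05 there were 5, beside 17.7% of all tested genes. A higher ING3 mean was seen for 6, and the median log2 difference was 0.17. TKT, the transketolase, which belongs to the branch of that pathway that makes no NADPH, as TALDO1 does, read 10753 and 11224 in control cells and 12751 and 12887 in ING3 cells (log2 difference 0.22, SE 0.054, adjusted p = 0.081). PGD, which makes NADPH in the other branch, differed by 0.28 (SE 0.067, adjusted p = 0.076). IDH1, the cytosolic isocitrate dehydrogenase, had a log2 difference of -0.20 (SE 0.059, adjusted p = 0.13).

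Heme and iron genes gave 1 call among 9. ALAS1, the first and rate-limiting enzyme of heme synthesis in most tissues, rose 1.37-fold, from 3115 and 3210 to 4337 and 4328 (log2 difference 0.45, SE 0.062, adjusted p = 0.013). Without control array a its adjusted p was 0.20 and without control array b it was 0.17. HMOX2, the constitutive heme oxygenase, had a log2 difference of -0.18 (SE 0.14), and its ING3 and control arrays overlapped. The list's median was -0.036.

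Of 11 other tested detoxification targets of NRF2, 2 were called, both higher, with a median log2 difference of -0.097. They were the aldo-keto reductases AKR1C1, at a log2 difference of 1.38 (SE 0.087), and AKR1C2, at 0.94 (SE 0.14), near-identical genes read by _x_at probe sets. AKR1C3 of the same list, not read by an _x_at probe set, differed by -0.29 (SE 0.28, limma adjusted p = 0.64). AKR1B10 was under the filter. The call for AKR1C2 was lost without control array a (adjusted p = 0.19) or b (0.18), and that for AKR1C1 was kept (0.027 and 0.024). CBR1, a carbonyl reductase, differed by -0.22 (SE 0.078, adjusted p = 0.19) and NQO2, a relative of NQO1, by 0.0033 (SE 0.061). Among the 3 superoxide and peroxide enzymes 0 were called by limma (0 also at an unadjusted p under 0.05), and SOD1, the cytosolic superoxide dismutase, differed by 0.11 (SE 0.051, adjusted p = 0.31).

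SLC7A11 is also a target of ATF4, the factor of the amino acid and integrated stress response. Of 10 genes of that response, 1 was called, and 8 had a higher mean, with a median log2 difference of 0.15. TRIB3, a pseudokinase induced through ATF4, read 8213 and 8540 in control cells and 11350 and 11910 in ING3 cells (log2 difference 0.47, SE 0.057, adjusted p = 0.0078). Its call was lost without control array a (adjusted p = 0.20) and without control array b (0.16). ATF4 differed by 0.17 (SE 0.058, adjusted p = 0.17), DDIT3 by 0.43 (SE 0.091, adjusted p = 0.056), ASNS by -0.056 (SE 0.054) and CHAC1, which degrades glutathione, by -0.25 (SE 0.12). Over all these lists 5 of 77 tested genes were called higher and 0 lower, beside the 1.03% and 0.476% of all tested genes. At an unadjusted limma p under 0.05 there were 26 of the 77, in either direction, beside 17.7% of all tested genes. In the lists with a call these were 2 of 11 regulators (MAFF higher, NFE2L1 lower) and 2 of 9 heme and iron genes. They were 3 of 11 detoxification targets and 5 of 10 genes of the ATF4 response.

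**Figure D3:**
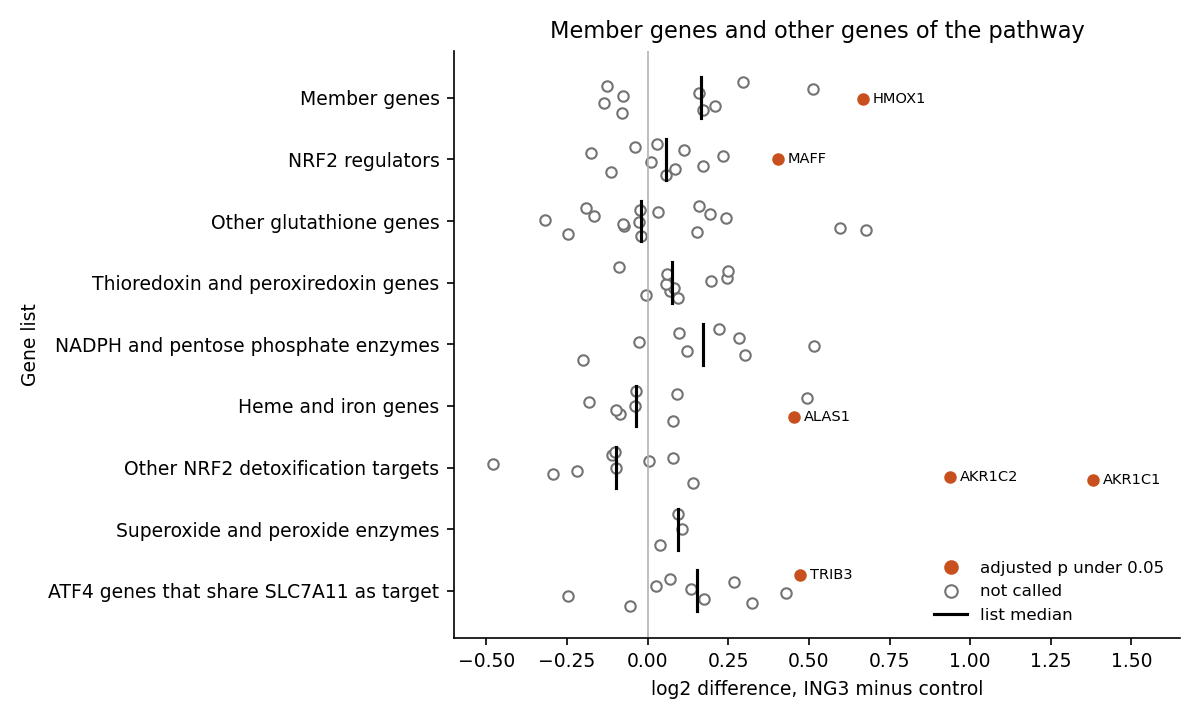
The log2 difference (ING3 minus control) of each tested gene of the 10 targets and of 8 lists around them; filled points have an adjusted p under 0.05 and black bars are list medians. The medians lie between -0.097 and 0.17, and the named filled points are HMOX1, MAFF, ALAS1, AKR1C1, AKR1C2 and TRIB3.

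The tested genes whose profile over the 4 arrays lay nearest to that of HMOX1, by Euclidean distance between mean-centred log2 values, were PDE4B (distance 0.019), NEURL2 (0.069), CAPS (0.075), CCN1 (0.084) and BOLA2 (0.090). Of these CCN1, a secreted matricellular protein, was called (log2 difference 0.75, adjusted p = 0.0050). The others had adjusted p between 0.076 and 0.38. With 4 arrays this likeness is a description.

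**Figure D4:**
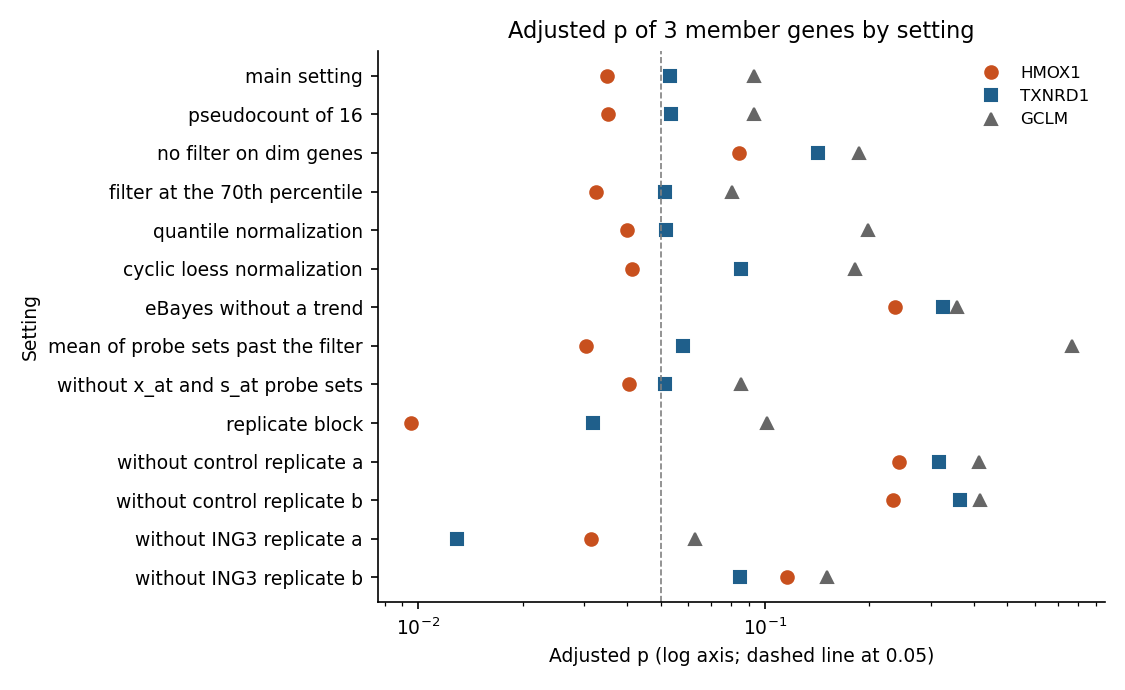
The limma adjusted p of HMOX1, TXNRD1 and GCLM under the main setting and 13 alternatives, on a log axis with the threshold of 0.05 dashed. HMOX1 lies between 0.0095 and 0.24, TXNRD1 passes under 2 alternatives, and GCLM stays above the threshold with a lowest value of 0.063.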

How the data were processed

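The authors deposited 1 linear intensity value per probe set and array. The submitters' processing notes name MAS5 and Affymetrix Expression Console, with versions not given. A trimmed mean (2% off each end) came to 500.1 on every array, which shows a scaling to 1 level. MAS5 signals of dim probe sets vary widely. The number of arrays, here 2 a group, sets the precision. GEO's platform annotation gave 41097 of 54675 probe sets 1 symbol; 1801 had several and 11777 were unnamed here, and 62 control probe sets were left out.

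Signals were taken as log2(signal + 1), which understates changes of dim genes. The filter on dim genes kept those with a mean log2 value at or over the 50th percentile of probe sets (a signal of 64.6), and these were tested with limma 3.58.1 in R 4.3.3 (lmFit, eBayes with an intensity trend, two-sided, no covariates), and called where the Benjamini-Hochberg adjusted p over all tested genes was under 0.05. "Rose" and "fell" refer to called genes, folds are powers of the log2 difference, and SE and intervals come from the same fit, which had 2 residual degrees of freedom and borrowed 7.35. An exact permutation test of 2 against 2 arrays cannot give a p below 0.333 and was not used. The fit was run on simulated data with independent errors drawn from its own variances, which cannot show how separate cultures would vary.

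The 10 genes and the lists were chosen with earlier results of these data known. Named were the 10 genes, ING3, the called genes of each list (up to 4) or else its brightest gene, and the genes nearest to HMOX1. NFE2L2, NFE2L1, KEAP1, BACH1, TXN, SRXN1, TXNIP, GSS, MGST1, GPX8, COL1A1, COL3A1, LUM, CD3E, CDH5, CDH2, KRT7, PGD, IDH1, HMOX2, AKR1C3, AKR1B10, CBR1, NQO2, ATF4, DDIT3, ASNS and CHAC1 were added after their values were seen. Promoter windows came from RefSeq.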

Additional observations from a re-analysis of the deposited data

How the results depend on the processing

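The 10 genes gave 127 values over 13 alternatives, of which 116 kept sign and side of the threshold, 4 changed sign without being called (SLC7A11 and GSR with averaged probe sets, ME1 without _x_at and _s_at probe sets, OSGIN1 without control array a), 5 lost the call of HMOX1 and 2 gained a call of TXNRD1. The fits without 1 array assume that the lone array of a group varies like the others. The count of genes called higher among the 10 was 0 with no filter on dim genes and 0 with eBayes without a trend, and ranged from 0 to 2 with 1 array left out. Among all tested genes, 125 were called higher and 58 lower. Without a filter these were 42 and 12, without a trend 0 and 0 (1686 genes at an unadjusted p under 0.05), with quantile normalization 80 and 36, with cyclic loess 36 lower, with averaged probe sets 80 higher, without _x_at and _s_at probe sets 64 and 36, and with 1 array left out 2 to 189 and 0 to 116. Among the 77 other pathway genes, the 5 called higher became 0 without a trend, 2 without _x_at and _s_at probe sets and 1 to 6 with 1 array left out; 1 was called lower (MGST1) with averaged probe sets and without _x_at and _s_at probe sets. Without _x_at and _s_at probe sets only 56 of these 77 genes were tested, and 9477 genes of the whole series. AKR1C1, AKR1C2 and ALAS1 were not among the 56, so their calls were not tested there rather than lost. MAFF and TRIB3 kept theirs (limma adjusted p = 0.018 and 0.0072). The labels a and b do not tie arrays across groups, and the a minus b deviations of the groups correlated at r = 0.029 across genes. With that letter as a replicate block, 263 genes were called higher and 179 lower, 2 of the 10 genes higher (HMOX1 and TXNRD1, adjusted p = 0.0095 and 0.032), 7 other pathway genes higher and 1 lower (GPX8), and 1 of the other probe sets (NQO1, adjusted p = 0.040). The cause of these changes was not tested. Signal over background limits OSGIN1, which was read close to the filter.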
